A study of Mus musculus with 6 samples.

Results

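Mitosis genes outside the main kinesin motors were followed in mouse mammary tumour explant cells with and without a hairpin against CdGAP, by 42 genes chosen by symbol. They cover the transcription factors of the programme, proteins of the chromosomes in cycling cells, mitotic entry, the centrosome and spindle, the kinetochore, the spindle checkpoint, the chromosomal passenger complex and exit from mitosis. All 42 symbols matched 1 gene each among the 41214 genes counted, and all 42 passed the filter on low counts, which left 13483 genes for testing. Cenpe is in the list for its place at the kinetochore, although its product is itself a kinesin motor. The cells come from tumours grown from NMuMG, an established line of mouse mammary epithelial cells, and they carry ErbB2, a receptor kinase whose excess drives mammary tumours. Short hairpin RNA expressed in the cells was either a control (shCTL, genotype WT, 3 libraries) or directed against CdGAP (shCdGAP, genotype CdGAP KD, 3 libraries), so that ErbB2 and a hairpin are common to both groups. CdGAP is the product of Arhgap31, a GTPase activating protein that switches off Cdc42 and Rac1. The labels leave unsaid how many hairpins were used, whether the cells were a pool or a clone, and whether replicates were separate cultures. The spread behind each p-value is thus that of these libraries, and it may be technical.

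Mitotic genes are mostly transcribed in the G2 phase and in mitosis, and their transcripts fall when cells leave the cycle. Cyclins A and B with the kinase CDK1 drive entry, the kinetochore couples chromosomes to spindle microtubules, and the checkpoint holds back the anaphase promoting complex until every chromosome is attached. That complex then marks securin and cyclin B for destruction, which frees separase to cut cohesin and lets the cell divide. In quiescent cells the DREAM complex represses many of these genes, and in cycling cells the MuvB proteins join B-MYB and FOXM1 to activate them.

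Total counts ran from 19176540 to 26824249 per library, and shCdGAP replicate 1, with 23151324, lay inside that range. Levels are given as CPM, the counts per 1000000 counts of the library, with the library total corrected for composition by the trimmed mean of M-values (TMM). A single count was worth 0.0364 to 0.0516 CPM. Arhgap31, the targeted gene, was at 13.2, 14.4 and 15.1 CPM in shCTL and at 1.70, 9.16 and 8.21 CPM in shCdGAP replicates 1, 2 and 3, and was lowest in replicate 1 (log2 fold change −1.16, edgeR adjusted p = 0.19, and −0.71, adjusted p = 0.00407, without replicate 1). That library stood apart over all tested genes as well, being higher than both other shCdGAP libraries in 49.2% of them and lower than both in 39.7%. It is shown apart throughout, a choice made with earlier results of these data known. Of 10 mammary epithelial markers, Krt8 (lowest 2682 CPM) and Krt18 (lowest 2495 CPM) were abundant in every library, Krt14 was at or near 0 throughout, Cldn3 was at 0 in all 6 and Epcam was at 0 in all 3 shCdGAP libraries. Summed, the 10 epithelial markers gave 5906 to 8416 CPM in shCTL and 7176, 10551 and 10980.3 CPM in shCdGAP. Krt14, Cldn3 and Cldn4 did not pass the filter on low counts and were not tested. Among the rest of the 10, 4 were called in edgeR over the 6 libraries, beside 21.7% of all tested genes. Cdh1 rose (173 to 264 CPM in shCTL and 690.2 to 859 in shCdGAP, edgeR adjusted p = 0.00193) and Krt7 rose (1.54 to 2.18 CPM in shCTL and 3.49 to 6.82 in shCdGAP, adjusted p = 0.016). Krt5 fell (1.03 to 1.58 CPM in shCTL and 0 to 0.0453 in shCdGAP, adjusted p = 0.00138) and Epcam fell (1.06 to 1.65 CPM in shCTL and 0 in shCdGAP, adjusted p = 0.00343). Summed, the 8 fibroblast markers gave 5.35 to 6.29 CPM in shCTL and 7.06, 5.99 and 3.41 CPM in shCdGAP. Summed, the 8 leukocyte markers gave 18.7 to 23.6 CPM in shCTL and 18.1, 11.7 and 6.62 CPM in shCdGAP. Summed, the 6 endothelial markers gave 2.17 to 2.33 CPM in shCTL and 0.760, 0.136 and 0.278 CPM in shCdGAP. Summed, the 5 adipocyte markers gave 4.36 to 4.85 CPM in shCTL and 1.39, 0.680 and 1.51 CPM in shCdGAP. Most markers of these lists did not pass the filter on low counts. Those tested were Pdgfra and Col1a1 (fibroblast), Cd68, Csf1r and Itgam (leukocyte), Tek and Vwf (endothelium), and Fabp4 and Cidec (adipocyte). Of these, 0 fibroblast, 1 leukocyte, 1 endothelial and 2 adipocyte markers were called, beside 21.7% of all tested genes. The leukocyte marker Itgam rose (0.0752 to 0.310 CPM in shCTL and 1.16 to 1.63 in shCdGAP, edgeR adjusted p = 0.00788). Most of the leukocyte sum in shCTL was Cd68, at 21.7, 15.4 and 15.6 CPM there and 10.9, 5.53 and 2.93 in shCdGAP. Cd68 did not pass (edgeR adjusted p = 0.0709). Neither did Csf1r, with means of 1.87 CPM in shCTL and 3.86 in shCdGAP (edgeR adjusted p = 0.206). Tek, Fabp4 and Cidec fell (edgeR adjusted p = 0.00586, 0.0169 and 0.0381). Lum and Thy1 (fibroblast), Adgre1 (macrophage), Emcn (endothelium) and Plin1 (adipocyte) were at 0 in every library. The part of these markers in the results was not tested.

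Mitosis genes were many times lower in shCdGAP replicate 1 than in any other library, and moderately higher in shCdGAP replicates 2 and 3 than in shCTL. The 42 genes together stood at 4651, 6676 and 6726 CPM in shCTL replicates 1 to 3, at 732 CPM in shCdGAP replicate 1, and at 8962 and 8459 CPM in shCdGAP replicates 2 and 3. The sum in shCdGAP replicate 1 was thus 8.22-fold below the shCTL mean and 11.9-fold below the mean of its own 2 replicates, while those 2 were 1.45-fold above the shCTL mean. Every one of the 42 genes was lower in shCdGAP replicate 1 than in all 3 shCTL libraries, against 42.5% of all tested genes, and 39 were at least 4-fold below the shCTL mean, against 7.17%. A gap of at least 8-fold was seen for 30 of the 42 and for 4.36% of tested genes. The median log2 ratio of the members to the shCTL mean was −3.34 in that library (range −4.58 to −0.70), and 3.49% of all tested genes lay below that median. In shCdGAP replicates 2 and 3 the medians were 0.54 and 0.52, and 35 of the 42 genes were above all shCTL libraries in both, against 32.1% of tested genes. None was below all shCTL libraries in both, against 33.3%. For 0 of the 42 did all 3 shCdGAP libraries lie above all shCTL libraries (21.7% of tested genes), and for 0 did all 3 lie below (22.4%). Fewer dividing cells and less of each transcript in a cell cannot be told apart in these bulk libraries. The low level of Arhgap31 in shCdGAP replicate 1 went with the low level of the mitosis genes in 1 library, and its part in the result was not tested.

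**Figure D1:**
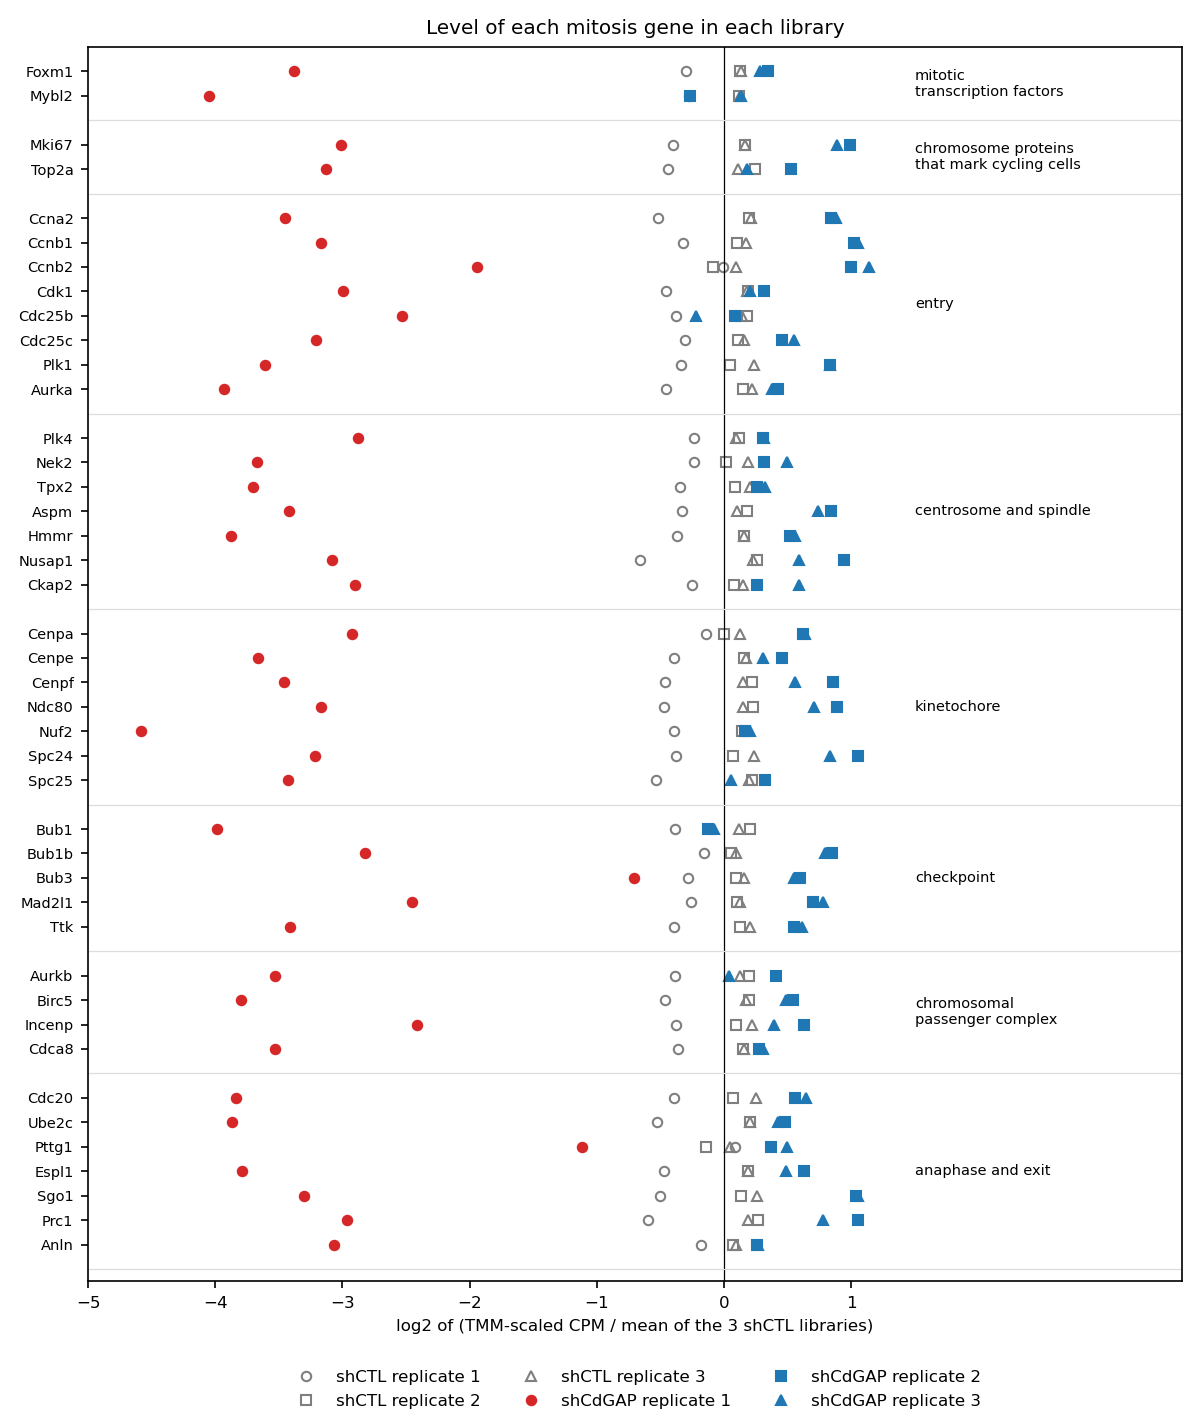
Log2 of the TMM-scaled CPM of each mitosis gene over the mean of the 3 shCTL libraries (x axis), for the 42 genes grouped by stage (y axis); each symbol is 1 library, with no error bar. The red points, shCdGAP replicate 1, lie left of every other library for all 42 genes, with Bub3 (−0.70) and Pttg1 (−1.12) nearest to 0 and Nuf2 (−4.58) farthest.

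The shCTL group held a smaller split of the same kind. In shCTL replicate 1 the level was below that in shCTL replicates 2 and 3 for 40 of the 42 genes, all but Ccnb2 and Pttg1, against 42.8% of all tested genes. The median log2 ratio in that library was −0.38, and the summed level in the other 2 shCTL libraries was 1.44-fold higher. Both libraries numbered 1 were therefore the lowest of their group, by different amounts. Within replicate numbers, the summed level of the 42 was 6.36-fold lower in shCdGAP than in shCTL for number 1, and 1.34-fold and 1.26-fold higher for numbers 2 and 3. In number 1 all 42 genes were lower in shCdGAP, beside 50% of tested genes. In numbers 2 and 3 the count higher in shCdGAP was 39 and 38 of 42, beside 49.5% and 48.8% of tested genes.

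Over all 6 libraries no mitosis gene passed the test between the groups. By edgeR's quasi-likelihood fit, with p-values adjusted over 13483 genes, 0 of the 42 were called at an adjusted p under 0.05. In that comparison 21.7% of tested genes were called, 10.4% higher in shCdGAP and 11.4% lower. At an unadjusted p under 0.05 the count was 0 in edgeR and in DESeq2, DESeq2 called 0 after adjustment, and the smallest unadjusted p was 0.413 in edgeR and 0.375 in DESeq2. Adjusted p-values in edgeR ran from 0.588 to 0.997. The standard errors (SE) of the log2 fold changes, shCdGAP over shCTL, had a median of 0.85, so the test left wide limits: for Mki67 the log2 fold change was 0.40 with a 95% interval of −1.64 to 2.44, and for Bub3, the member with the smallest SE, 0.26 with −0.56 to 1.08. Point estimates ran from −0.64 ± 0.83 for Bub1 to 0.57 ± 0.68 for Ccnb2 (SE). The median log2 fold change of the 42 was −0.0033, beside 0.01 over all tested genes. With the replicate number as a block it was −0.62, still with 0 genes called.

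Without shCdGAP replicate 1, 26 of the 42 genes rose in shCdGAP and 0 fell, also 0 at an unadjusted p under 0.05 in edgeR, where 19.9% of all tested genes were called higher and 21.9% lower. The median log2 fold change was then 0.53, the median SE 0.16, and the called changes ran from 0.42 to 1.08. The spread in this fit comes from 3 shCTL and 2 shCdGAP libraries, and the library left out was chosen with its levels known. Without both libraries numbered 1, 32 rose and 1, Bub1, fell (−0.25, edgeR adjusted p = 0.0107), with 25.5% and 26.7% of tested genes called higher and lower, and the median was 0.38. Leaving out any other single library gave 0 calls among the members.

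**Figure D2:**
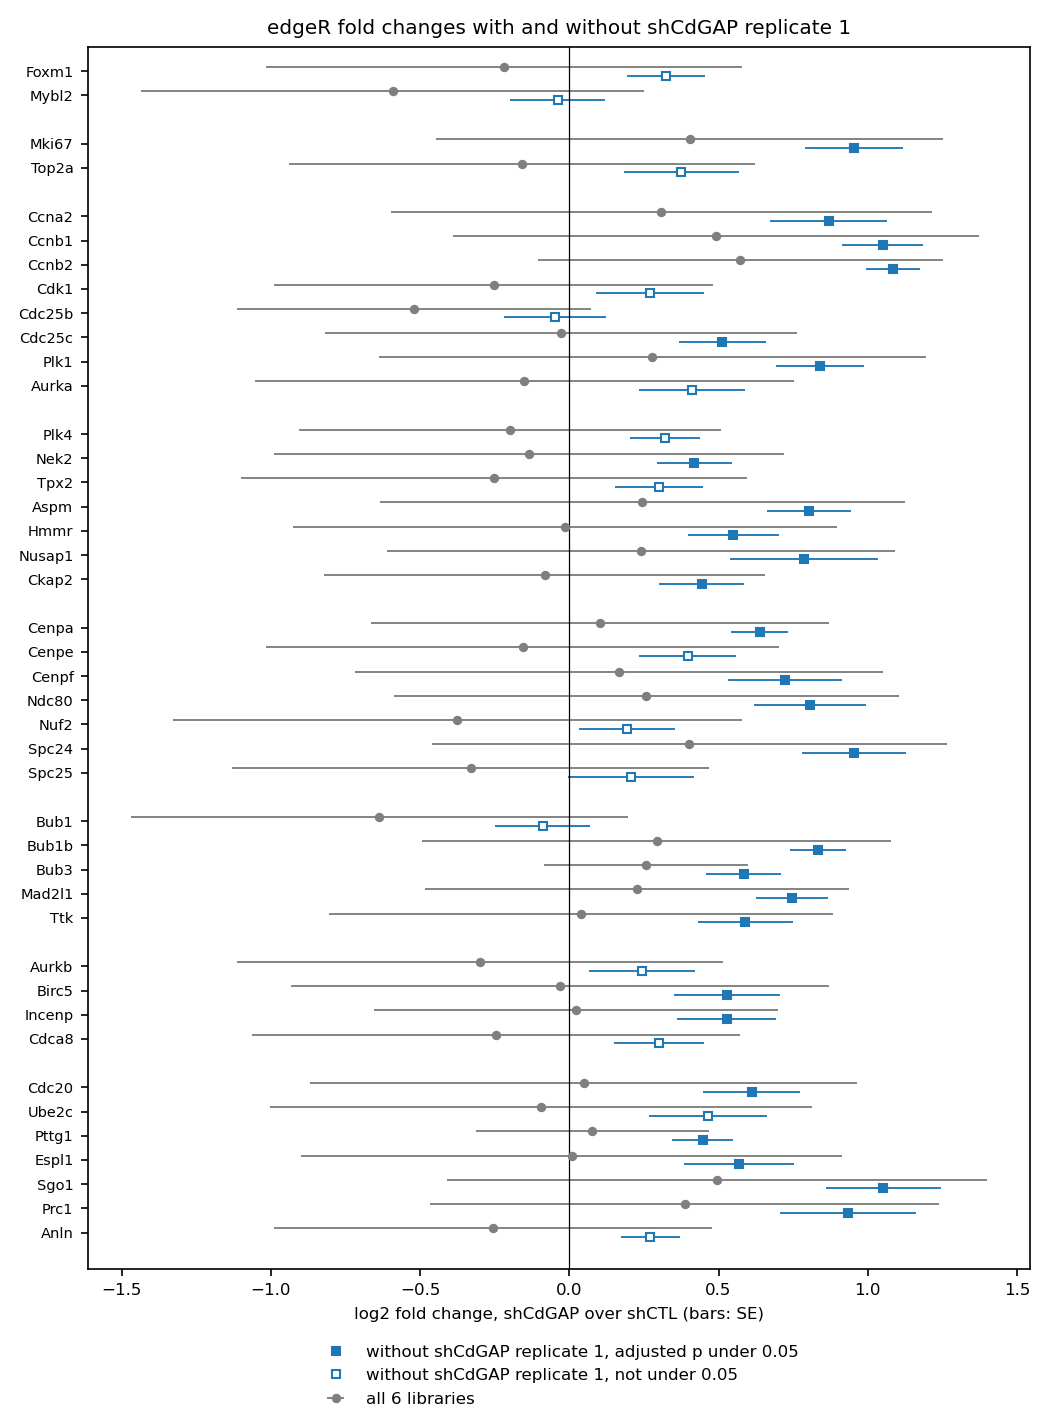
Log2 fold change of each mitosis gene, shCdGAP over shCTL (x axis), from edgeR with all 6 libraries (grey circles) and without shCdGAP replicate 1 (blue squares, filled where the adjusted p was under 0.05); bars are SE and genes are in order of stage. With all 6 libraries the values lie between −0.64 and 0.57 with long bars, and without that library 26 of 42 squares are filled, all to the right of 0.

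Because the members were high or low in the same libraries, their promoters were read for the elements that mitotic promoters are known for. These are the CCAAT box, which binds NF-Y, and the cell cycle genes homology region (CHR), which binds the MuvB core of the DREAM and B-MYB complexes. RefSeq promoters on GRCm38.p6, each from 250 bases before to 50 after a start, were found for 35 of the 42 members, and a gene counted as holding a motif where any of its promoters did. CCAAT, on either strand, was in 26 of the 35 (74.3%), against 41.1% of all 27025 genes and 43.5% of tested genes with a promoter entry. TTTGAA or TTCGAA, the letters of the CHR core, again on either strand, were in 25 of 35 (71.4%), against 21.7% of all those genes and 16.5% of tested genes. Both were present in 23 members (65.7%), against 7.03% of tested genes. GGCGG, which GC-rich promoters hold in general, was in 32 of 35 members (91.4%) and 84.9% of tested genes. No motif contains another, although matches can share letters, and a match is a description of the sequence, not a bound site. Members with and without the CHR letters had median log2 ratios of −3.30 (25 genes) and −3.42 (10 genes) in shCdGAP replicate 1. For CCAAT the medians were −3.42 with it (26 genes) and −3.08 without (9 genes), so the order was opposite for the 2 motifs.

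Promoter stretches of 5 genes are printed, each of 150 bases from 130 before to 20 after the RefSeq start and read 5′ to 3′ along the gene, with CCAAT and CHR letters (or their reverse complements) in capitals. They were chosen after the values were seen. Cdk1, Ccnb2 and Cdc20 show promoters with both elements from genes of entry and exit. Bub3 carries them as well and was the member nearest to its shCTL level in shCdGAP replicate 1. Mybl2 has neither in this window and was 16.5-fold below the shCTL mean in that library. As log2 ratios to the shCTL mean there, members with both elements ran from −3.99 (Bub1) to −0.70 (Bub3). Those with neither in any promoter entry ran from −4.58 (Nuf2) to −1.12 (Pttg1). On GRCm38.p6 they lie at chr10:69352893-69353042 (minus strand) for Cdk1, chr9:70421535-70421684 (minus strand) for Ccnb2, chr4:118437324-118437473 (minus strand) for Cdc20, chr7:131560240-131560389 (plus strand) for Bub3 and chr2:163054505-163054654 (plus strand) for Mybl2.
Cdk1: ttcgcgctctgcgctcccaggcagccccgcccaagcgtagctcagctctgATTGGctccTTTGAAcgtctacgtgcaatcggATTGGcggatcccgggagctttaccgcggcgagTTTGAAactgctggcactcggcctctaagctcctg
Ccnb2: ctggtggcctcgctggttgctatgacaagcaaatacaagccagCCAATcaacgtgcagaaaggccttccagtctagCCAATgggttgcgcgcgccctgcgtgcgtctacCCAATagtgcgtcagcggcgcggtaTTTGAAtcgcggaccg
Cdc20: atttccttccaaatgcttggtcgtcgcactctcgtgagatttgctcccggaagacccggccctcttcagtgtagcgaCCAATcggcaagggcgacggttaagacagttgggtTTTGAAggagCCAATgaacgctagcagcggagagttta
Bub3: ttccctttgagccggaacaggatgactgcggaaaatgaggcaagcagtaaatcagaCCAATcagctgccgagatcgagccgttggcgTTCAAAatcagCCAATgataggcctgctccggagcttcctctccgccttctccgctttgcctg
Mybl2: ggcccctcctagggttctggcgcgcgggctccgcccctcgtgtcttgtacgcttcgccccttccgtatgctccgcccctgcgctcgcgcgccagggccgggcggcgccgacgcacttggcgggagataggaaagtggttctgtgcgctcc

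The activators of the programme and the usual markers of cycling cells were all low in shCdGAP replicate 1. Foxm1, a forkhead factor that activates genes of G2 and mitosis, was at 142, 190.1 and 191 CPM in shCTL, 16.7 in shCdGAP replicate 1, and 221 and 212 in replicates 2 and 3. Mybl2, which encodes B-MYB, the partner of the MuvB complex, was at 59.2, 77.5 and 78.1 CPM in shCTL, 4.34 in shCdGAP replicate 1, and 59.6 and 78.6 in replicates 2 and 3. Foxm1 was above all shCTL libraries in replicates 2 and 3, and Mybl2 overlapped with shCTL there. Without shCdGAP replicate 1 neither passed, at log2 fold changes of 0.32 ± 0.13 (SE; edgeR adjusted p = 0.0822) and −0.04 ± 0.16 (adjusted p = 0.865). Mki67, which encodes Ki-67, the protein that coats mitotic chromosomes and is used as a marker of proliferation, was at 274, 407 and 408 CPM in shCTL, 44.9 in shCdGAP replicate 1, and 722 and 672 in replicates 2 and 3. It was 8.08-fold below the shCTL mean in replicate 1 and 1.92-fold above it in replicates 2 and 3, and rose without replicate 1 (log2 fold change 0.95 ± 0.16, adjusted p = 0.00252). Top2a, the topoisomerase that untangles sister chromatids, was at 497, 797 and 729.9 CPM in shCTL, 77.1 in shCdGAP replicate 1, and 973 and 764 in replicates 2 and 3. Its shCTL and shCdGAP values overlapped once replicate 1 was set aside (0.38 ± 0.19, adjusted p = 0.157).

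Among 8 genes of mitotic entry, 5 rose without shCdGAP replicate 1, beside 19.9% of all tested genes, and the cyclins led them. Summed, the 8 were at 854, 1243 and 1283 CPM in shCTL, 131 CPM in shCdGAP replicate 1, and 1724 and 1699 CPM in replicates 2 and 3. Ccnb2, a cyclin B, was at 67.1, 63.7 and 71.9 CPM in shCTL, 17.6 in shCdGAP replicate 1, and 135 and 149 in replicates 2 and 3. Its shCTL values were in proportion the closest together of the 8, and its log2 fold change without replicate 1 was the largest of all 42 members (1.08 ± 0.09, edgeR adjusted p = 7.56e-05). Ccnb1, the main partner of CDK1 in mitosis, was at 87.0, 116 and 122 CPM in shCTL, 12.1 in shCdGAP replicate 1, and 221 and 225 in replicates 2 and 3. Ccna2, whose cyclin acts from S phase into early mitosis, was at 146, 239.8 and 242 CPM in shCTL, 19.2 in shCdGAP replicate 1, and 374 and 385 in replicates 2 and 3. All 3 cyclin genes were higher in shCdGAP replicates 2 and 3 than in any shCTL library, by 1.81-fold to 2.10-fold over the shCTL mean. Cdk1, the gene of the kinase they activate, was at 232, 364 and 359.8 CPM in shCTL, 39.8 in shCdGAP replicate 1, and 395 and 366 in replicates 2 and 3. It did not pass without replicate 1 (0.27 ± 0.18, adjusted p = 0.266), and its difference from the cyclin genes was not tested. Plk1, the Polo kinase that acts at entry, on centrosomes and in cytokinesis, was at 109, 142 and 162 CPM in shCTL, 11.3 in shCdGAP replicate 1, and 245 and 245 in replicates 2 and 3, and rose (0.84 ± 0.15, adjusted p = 0.00289). Cdc25c, a phosphatase that activates CDK1, was at 19.0, 25.3 and 26.3 CPM in shCTL, 2.55 in shCdGAP replicate 1, and 32.3 and 34.4 in replicates 2 and 3, and rose (0.51 ± 0.15, adjusted p = 0.024). The related phosphatase gene Cdc25b did not pass, at 78.9, 116 and 113 CPM in shCTL against 17.8, 109 and 88.4 CPM in shCdGAP, with replicates 2 and 3 inside the shCTL range. Aurka, the Aurora kinase of the centrosome, was 15.2-fold below the shCTL mean in replicate 1 and did not pass without it (0.41 ± 0.18, adjusted p = 0.1). Ccnb1 and Ccnb2 each have an annotated pseudogene, with 43 and 5 counts over the 6 libraries against 18968 and 12093 for the genes, and reads placed equally well on both could have been lost from either.

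**Figure D3:**
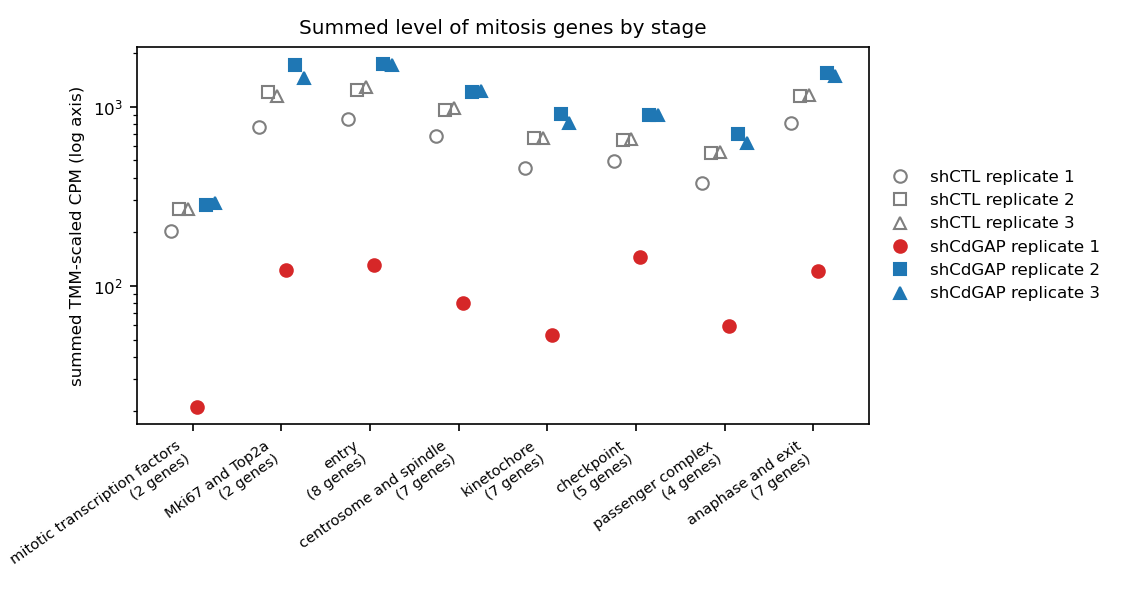
Summed TMM-scaled CPM (log axis) of the mitosis genes of each stage in each of the 6 libraries; each symbol is 1 library and the number of genes per stage is under its name. In every stage shCdGAP replicate 1 is lowest and shCdGAP replicates 2 and 3 are highest, with checkpoint genes showing the smallest gap (4.19-fold between the shCTL mean and replicate 1) and the 2 transcription factors the largest (11.7-fold).

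Of 7 centrosome and spindle genes, 5 rose without shCdGAP replicate 1, beside 19.9% of all tested genes. All 7 were above every shCTL library in replicates 2 and 3, beside 32.1% of tested genes. The summed level was 686, 951 and 981 CPM in shCTL, 79.9 CPM in shCdGAP replicate 1, and 1211 and 1227 CPM in replicates 2 and 3. Aspm, which organises microtubules at the spindle pole, was at 71.1, 101 and 95.7 CPM in shCTL, 8.31 in shCdGAP replicate 1, and 159.8 and 149 in replicates 2 and 3. Nusap1, a microtubule bundling protein, was at 59.1, 112 and 109 CPM in shCTL, 11.0 in shCdGAP replicate 1, and 179 and 141 in replicates 2 and 3. Hmmr, a hyaluronan receptor that also works as a spindle protein, was at 131, 189 and 188 CPM in shCTL, 11.5 in shCdGAP replicate 1, and 242 and 249 in replicates 2 and 3. In replicate 1 these were 8.46-fold (Nusap1) to 14.7-fold (Hmmr) below the shCTL mean. Ckap2, a cytoskeleton-associated spindle protein, was at 76.7, 96.5 and 101 CPM in shCTL, 12.2 in shCdGAP replicate 1, and 109 and 138 in replicates 2 and 3. Nek2, the kinase that separates centrosomes, was at 83.3, 99.0 and 111 CPM in shCTL, 7.69 in shCdGAP replicate 1, and 122 and 138 in replicates 2 and 3. Log2 fold changes of these 5 without replicate 1 ran from 0.42 for Nek2 (edgeR adjusted p = 0.0291) to 0.80 for Aspm (adjusted p = 0.00278). Tpx2, the activator of Aurora A on the spindle and the member with the most CPM per kilobase in this group, was at 214, 289 and 312 CPM in shCTL, 20.9 in shCdGAP replicate 1, and 324 and 338 in replicates 2 and 3, and did not pass (0.30 ± 0.15, adjusted p = 0.14). Plk4, which controls centriole duplication, did not pass either (0.32 ± 0.12, adjusted p = 0.0582).

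Of 7 kinetochore genes, 4 rose without shCdGAP replicate 1, beside 19.9% of all tested genes. Ndc80, Nuf2, Spc24 and Spc25 encode the 4 subunits of the NDC80 complex, the main microtubule anchor of the outer kinetochore. Spc24 was at 11.5, 15.8 and 17.6 CPM in shCTL, 1.61 in shCdGAP replicate 1, and 31.1 and 26.7 in replicates 2 and 3. Ndc80 was at 29.1, 47.4 and 45.0 CPM in shCTL, 4.51 in shCdGAP replicate 1, and 74.8 and 66.1 in replicates 2 and 3. Both rose without replicate 1, by 0.95 ± 0.18 (edgeR adjusted p = 0.00352) and 0.81 ± 0.19 (adjusted p = 0.0102). Their partner genes did not pass, and their shCdGAP replicates 2 and 3 overlapped with shCTL. Nuf2 was at 57.2, 82.9 and 85.0 CPM in shCTL, 3.13 in shCdGAP replicate 1, and 84.1 and 86.3 in replicates 2 and 3. Spc25 was at 46.4, 78.3 and 77.2 CPM in shCTL against 6.26, 84.2 and 70.1 CPM in shCdGAP. The difference between subunits was not tested. Of all members Nuf2 was farthest below shCTL in shCdGAP replicate 1, 24.0-fold below the shCTL mean, with 70 counts there. Cenpa, which encodes the centromeric variant of histone H3, was at 72.9, 80.6 and 88.0 CPM in shCTL, 10.6 in shCdGAP replicate 1, and 124 and 125 in replicates 2 and 3, and rose (0.64 ± 0.10, adjusted p = 0.00133). Cenpf, a large protein of the outer kinetochore, was at 114, 183 and 174 CPM in shCTL, 14.3 in shCdGAP replicate 1, and 284 and 231 in replicates 2 and 3, and rose (0.72 ± 0.19, adjusted p = 0.0173). Cenpe, the kinesin that carries chromosomes to the spindle equator, did not pass at 125, 183 and 184 CPM in shCTL against 12.9, 225 and 203 CPM in shCdGAP (adjusted p = 0.0845 without replicate 1). Summed, the 7 kinetochore genes were 11.3-fold below the shCTL mean in replicate 1 and 1.43-fold above it in replicates 2 and 3.

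Of 5 checkpoint genes, 4 rose without shCdGAP replicate 1, beside 19.9% of all tested genes. In that library the 5 had the widest range of any stage, from −3.99 to −0.70 as log2 ratios to the shCTL mean. Bub3, a WD40 protein that brings BUB1 and BUBR1 to the kinetochore, was at 118, 153 and 160.1 CPM in shCTL, 88.3 in shCdGAP replicate 1, and 217 and 210.4 in replicates 2 and 3. It was 1.63-fold below the shCTL mean in replicate 1, the smallest gap of the 42. Bub1, the kinase that BUB3 brings there, was at 96.2, 145 and 136 CPM in shCTL, 7.91 in shCdGAP replicate 1, and 115 and 119 in replicates 2 and 3. It was 15.9-fold below the shCTL mean in replicate 1, and in replicates 2 and 3 it lay inside the shCTL range. Its log2 fold change over all 6 libraries, −0.64 ± 0.83, was the lowest of the members (edgeR adjusted p = 0.639). Bub1b, which encodes BUBR1, part of the complex that inhibits CDC20, was at 153, 178 and 182 CPM in shCTL, 24.1 in shCdGAP replicate 1, and 308 and 295 in replicates 2 and 3. Mad2l1, which encodes MAD2, the checkpoint protein that captures CDC20, was at 81.4, 105 and 106 CPM in shCTL, 17.8 in shCdGAP replicate 1, and 158 and 167 in replicates 2 and 3. Ttk, which encodes MPS1, the kinase that starts checkpoint signalling, was at 50.8, 72.5 and 76.7 CPM in shCTL, 6.26 in shCdGAP replicate 1, and 97.5 and 102 in replicates 2 and 3. All but Bub1 rose without replicate 1, from 0.58 ± 0.13 for Bub3 (adjusted p = 0.00735) to 0.83 ± 0.09 for Bub1b (adjusted p = 0.00033). The changes of Mad2l1 and Ttk were 0.75 ± 0.12 and 0.59 ± 0.16 (adjusted p = 0.00188 and 0.0196).

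The chromosomal passenger complex corrects wrong attachments and later guides cytokinesis. Of its 4 genes, 2 rose without shCdGAP replicate 1, beside 19.9% of all tested genes. Birc5, which encodes survivin, was at 91.4, 145 and 142 CPM in shCTL, 9.03 in shCdGAP replicate 1, and 184 and 177 in replicates 2 and 3. Incenp, the scaffold, was at 141, 196 and 213 CPM in shCTL, 34.3 in shCdGAP replicate 1, and 284 and 241 in replicates 2 and 3. Their log2 fold changes were 0.53 ± 0.18 and 0.53 ± 0.17 (edgeR adjusted p = 0.0452 and 0.0344). Aurkb, the kinase subunit, was at 77.9, 116 and 111 CPM in shCTL against 8.80, 135 and 104 CPM in shCdGAP, and Cdca8, which encodes borealin, at 63.5, 90.6 and 90.9 CPM in shCTL against 7.06, 98.5 and 101 CPM in shCdGAP. Neither passed (0.24 ± 0.18 and 0.30 ± 0.15, adjusted p = 0.307 and 0.147). In replicate 1 the scaffold was 5.34-fold below the shCTL mean and the other 3 were 11.5-fold to 13.9-fold below.

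Of 7 genes of anaphase and exit, 5 rose without shCdGAP replicate 1, beside 19.9% of all tested genes. All 7 were above every shCTL library in replicates 2 and 3, beside 32.1% of tested genes. Cdc20, the activator of the anaphase promoting complex in mitosis, was at 112, 154 and 174 CPM in shCTL, 10.3 in shCdGAP replicate 1, and 215 and 229 in replicates 2 and 3. Ube2c, the ubiquitin-conjugating enzyme of that complex, was at 128, 212 and 213 CPM in shCTL against 12.6, 258 and 248 CPM in shCdGAP and did not pass (0.46 ± 0.20, edgeR adjusted p = 0.0941). In shCdGAP replicate 1 both were far below the shCTL mean, at 14.3-fold and 14.6-fold. Pttg1 encodes securin and Espl1 encodes separase, the protease that securin holds inactive. Pttg1 was at 57.7, 49.3 and 56.3 CPM in shCTL, 25.1 in shCdGAP replicate 1, and 70.3 and 76.7 in replicates 2 and 3. Espl1 was at 81.8, 129.5 and 129 CPM in shCTL, 8.22 in shCdGAP replicate 1, and 175 and 159 in replicates 2 and 3. The pair had unequal gaps in replicate 1, where Pttg1 was 2.17-fold and Espl1 13.8-fold below the shCTL mean. Sgo1, which encodes shugoshin, the guardian of centromeric cohesin, was at 26.4, 41.1 and 44.8 CPM in shCTL, 3.80 in shCdGAP replicate 1, and 76.9 and 77.5 in replicates 2 and 3. Prc1, which bundles the microtubules of the central spindle, was at 114, 208 and 198 CPM in shCTL, 22.3 in shCdGAP replicate 1, and 360.0 and 298 in replicates 2 and 3. Sgo1 had the largest change after Ccnb2 of the members without replicate 1 (1.05 ± 0.19, adjusted p = 0.00342), and Prc1 also rose (0.93 ± 0.23, adjusted p = 0.0123). The changes were smaller for Cdc20 (0.61 ± 0.16, adjusted p = 0.0183), Espl1 (0.57 ± 0.18, adjusted p = 0.0385) and Pttg1 (0.45 ± 0.10, adjusted p = 0.0093). Anln, which encodes the contractile ring protein anillin, was at 290.2, 345 and 350.3 CPM in shCTL against 39.1, 392 and 395 CPM in shCdGAP and did not pass (0.27 ± 0.10, adjusted p = 0.0601).

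Levels between genes were compared per kilobase of exon. In shCTL, Cdk1 was highest at 92.4 ± 21.8 CPM per kilobase (SD, n = 3), followed by Cdc20 at 78.5 ± 17.0, Top2a at 74.9 ± 17.5, Ube2c at 71.0 ± 18.7 and Bub3 at 70.0 ± 10.9, where each neighbour was within 1 SD of the next. Aspm (7.76 ± 1.38), Sgo1 (9.82 ± 2.56) and Plk4 (10.3 ± 1.33) were lowest. In shCdGAP replicate 1 the order had a different head: Bub3 was at 43.0 CPM per kilobase, followed by Pttg1 (12.6), Cdk1 (11.6) and Ccnb2 (11.4), while Cdc20 was at 5.50 and Ube2c at 4.85. In replicates 2 and 3 Cdc20 led with 115 and 122 CPM per kilobase, near Cdk1 with 115 and 106 and Plk1 with 111 and 111. The exon length is that of all annotated exons of a gene together, so genes with long unused exons appear lower than they are. On GRCm38, Cdk1 (ENSMUSG00000019942) lies on chromosome 10 from 69336635 to 69352938, Ccnb2 (ENSMUSG00000032218) on chromosome 9 from 70407689 to 70421554, Mki67 (ENSMUSG00000031004) on chromosome 7 from 135689788 to 135716379, Bub3 (ENSMUSG00000066979) on chromosome 7 from 131560391 to 131571898 and Nuf2 (ENSMUSG00000026683) on chromosome 1 from 169497934 to 169531464.

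The rest of the mitotic machinery, 116 genes in 10 lists, was less uniform. Over all 6 libraries 5 of them rose and 4 fell, shares below the 10.4% and 11.4% of all tested genes. Without shCdGAP replicate 1, 46 rose and 4 fell, beside 19.9% and 21.9% of tested genes. Their median log2 ratio to the shCTL mean in shCdGAP replicate 1 was −1.27, beside −3.34 for the 42 members and −0.0017 for all tested genes. List by list that median was −2.60 for 7 further checkpoint genes, −2.50 for 8 condensin genes, −2.17 for 17 inner kinetochore genes, −2.06 for 9 outer kinetochore genes, −1.83 for 8 cytokinesis genes, −1.35 for 15 centrosome and spindle genes and −1.09 for 12 regulators of entry. It was closer to 0 for 13 cohesin genes (−0.32), 10 genes of the MuvB and DREAM complexes (−0.25) and 17 genes of the anaphase promoting complex and its regulators (−0.01). Within that last list, Cdc16, a core subunit, had a log2 ratio of 0.53 in replicate 1 and Anapc11, the catalytic RING subunit, 0.64, while the inhibitor gene Fbxo5 had −3.16 and Ube2s, the enzyme that extends ubiquitin chains, −1.65. In the cohesin list, Cdca5 (−3.26), which encodes sororin, Sgo2a (−3.68) and Esco2 (−3.47) had the lowest ratios. The other 10 genes of that list, among them the ring genes Smc1a (−0.64), Smc3 (−0.32) and Rad21 (−0.29), lay between −0.80 (Stag1) and 0.32 (Nipbl). The MuvB and DREAM list was split as well, with Rbl1 (−2.70), Lin54 (−1.87), Lin9 (−1.63) and Tfdp1 (−0.91) lowest. Its other genes lay between −0.29 (Lin52) and 0.41 (Rbl2).

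**Figure D4:**
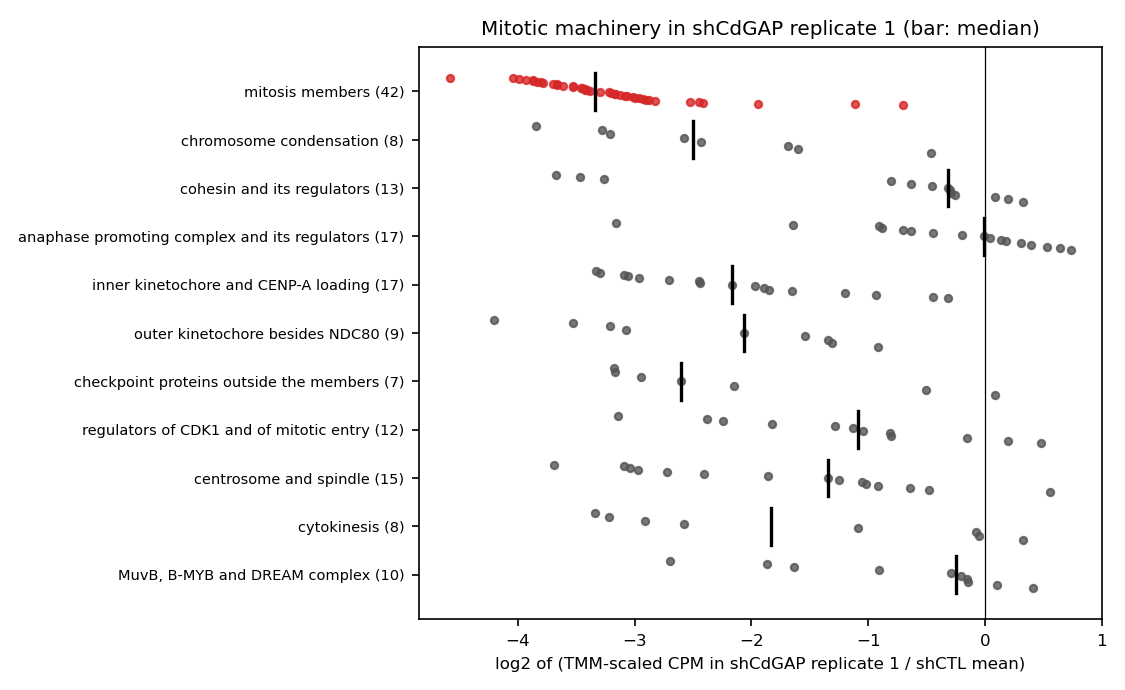
Log2 of the TMM-scaled CPM in shCdGAP replicate 1 over the shCTL mean (x axis) for the 42 mitosis members and the genes of 10 further lists (y axis, number of genes in brackets); each point is a gene and the black bar is the median. The members have the lowest median (−3.34), while the anaphase promoting complex list (−0.01) and the MuvB and DREAM list (−0.25) have medians near 0. Single genes of both lists lie as low as −3.16 (Fbxo5) and −2.70 (Rbl1).

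Few of these genes passed over all 6 libraries, and the 9 that did lay on 1 side of shCTL in every shCdGAP library. Passing the test selects for such separation, so it is no further result. Of all tested genes, 21.7% lay above and 22.4% below all shCTL libraries in every shCdGAP library. In the anaphase promoting complex list of 17, 3 rose and 1 fell. The other called genes were 1 of 9 outer kinetochore genes, 1 of 7 checkpoint genes and 1 of 8 cytokinesis genes, which fell, and 1 of 12 regulators of entry and 1 of 15 centrosome and spindle genes, which rose. Anapc11 rose, at 25.8, 27.9 and 29.9 CPM in shCTL and 43.5, 61.8 and 59.6 CPM in shCdGAP replicates 1 to 3 (log2 fold change 0.98 ± 0.16, edgeR adjusted p = 0.00839). Cdc16 rose, at 47.9, 43.7 and 43.6 CPM in shCTL and 64.9, 67.0 and 77.9 CPM in shCdGAP replicates 1 to 3 (0.63 ± 0.12, edgeR adjusted p = 0.0113). Anapc1, the largest scaffold subunit, fell, at 357, 302 and 291 CPM in shCTL and 195, 224 and 232 CPM in shCdGAP replicates 1 to 3 (−0.55 ± 0.13, edgeR adjusted p = 0.0251). Zwint, which links the kinetochore to the checkpoint complex of ROD, ZWILCH and ZW10, fell, at 279, 363 and 344 CPM in shCTL and 174, 160.0 and 153 CPM in shCdGAP replicates 1 to 3 (−1.02 ± 0.13, edgeR adjusted p = 0.00325). Zw10 fell as well, at 96.2, 93.6 and 92.3 CPM in shCTL and 21.1, 47.9 and 43.5 CPM in shCdGAP replicates 1 to 3 (−1.33 ± 0.30, edgeR adjusted p = 0.0228). Sept9, a septin of the cleavage furrow, fell, at 372, 302 and 299.9 CPM in shCTL and 152, 170.0 and 174 CPM in shCdGAP replicates 1 to 3 (−0.97 ± 0.13, edgeR adjusted p = 0.00329). Arpp19, an inhibitor of the phosphatase that opposes CDK1, rose, at 86.6, 113 and 113 CPM in shCTL and 145, 163 and 169 CPM in shCdGAP replicates 1 to 3 (0.61 ± 0.14, edgeR adjusted p = 0.0247). Numa1, a spindle pole protein, rose, at 219, 221 and 221 CPM in shCTL and 325, 296 and 268 CPM in shCdGAP replicates 1 to 3 (0.43 ± 0.10, edgeR adjusted p = 0.0303). Among the shCdGAP libraries, Zw10, Anapc11, Cdc16, Anapc1, Sept9 and Arpp19 were lowest in replicate 1, as the members were, and Zwint and Numa1 were highest there. In proportion, Zw10 differed most between the shCdGAP libraries and the other 7 named genes differed less. The lists of condensins, cohesin, the inner kinetochore and the MuvB and DREAM complexes had 0 of 8, 13, 17 and 10 genes called in edgeR and in DESeq2, and at an unadjusted p under 0.05 edgeR gave 0, 1, 0 and 0.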

How the data were processed

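RNA was sequenced from 6 libraries of NMuMG-derived mammary tumour explant cells, 3 shCTL and 3 shCdGAP. Per the labels' protocols, RNA was extracted with TRIZOL and cleaned on RNeasy columns. Build GRCm38 and the tools CASAVA 1.8, Trimmomatic 0.30, Cuffdiff 2.2.1, DESeq and TopHat2 2.0.14 are named in the submitters' processing notes. The values the authors deposited were raw counts of fragments, 1 per gene and library, made with featureCounts 1.4.6 on Ensembl release 77, per the file headers. Those headers give read pairs with both ends aligned, no chimeric pairs and strand setting 2 (reverse-stranded), and no option that counts reads with several alignments. Symbols came from GENCODE M21 (40254 of 41214 genes matched).

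Counts were tested with edgeR 4.0.16 (filterByExpr with minimum count 10 and minimum total 15, TMM, quasi-likelihood F test, all 6 libraries, Benjamini-Hochberg over 13483 genes). SE is the absolute log2 fold change over the square root of F, and intervals are 95% t intervals from it. DESeq2 1.42.0 was an alternative, and the closing section gives the others. The edgeR and DESeq2 steps were tested on simulated data, with the shares recovered and false given in the closing section. Replicate numbers were checked for pairing: the correlation of same-numbered libraries' deviations from their group means was 0.355 (number 1), 0.289 (number 2) and 0.246 (number 3). Each is over 0.1, so the numbers were taken to pair the libraries, on the data alone. The main fit nevertheless has no block, and the replicate number as a block is an alternative. Numbers 2 and 3 are not told apart by it: shCTL 3 with shCdGAP 2 gave 0.254 and shCTL 2 with shCdGAP 3 gave 0.186, while number 1 correlated negatively with both others. No 2 libraries agreed within sampling noise (lowest chi-square per degree of freedom 3.16). The members, stages, further lists, alternatives and the setting apart of shCdGAP replicate 1 were chosen with earlier results of these data known, so no p is given over a list. Values in every library are given for members called with or without shCdGAP replicate 1, the member with most CPM per kilobase in each stage, and the largest and smallest changes. Of each further list, up to 2 called genes in each direction are named. Foxm1 and Top2a each overlap another gene on their strand, and the headers show no option that counts a pair for both.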

Additional observations from a re-analysis of the deposited data

How the results depend on the processing

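No mitosis member was called with the replicate block (counts of 0 higher and 0 lower, edgeR adjusted p from 0.254 to 0.928), with DESeq2, with DESeq2's size factors, with no filter on low counts, with only genes at a mean of 10 CPM or more, or without any single library other than shCdGAP replicate 1. Their median log2 fold change was −0.62 with the block, 0.01 with DESeq2, 0.01 with its size factors, 0.01 with no filter and −0.02 at 10 CPM, so its sign changed with the setting. It ran from −0.37 to 0.53 with a library left out. Leaving out a library gave 0 to 26 members risen, the 26 without shCdGAP replicate 1. Without both libraries numbered 1, 32 members rose and 1 fell. Over all genes, 538 to 2753 rose and 856 to 3032 fell with a library left out (1396 and 1534 on all 6), 870 and 825 at 10 CPM, where fewer genes were tested, and 3475 and 3640 without both libraries numbered 1. Members below 0 over all 6 libraries that passed above 0 without both libraries numbered 1 were Foxm1 (0.19), Cdc25c (0.38), Aurka (0.23), Plk4 (0.22), Nek2 (0.32), Hmmr (0.39), Ckap2 (0.33), Cenpe (0.23), Birc5 (0.34), Ube2c (0.26) and Anln (0.19). For those that also did so without shCdGAP replicate 1, the range with a library left out was −0.43 to 0.51 for Cdc25c, −0.59 to 0.42 for Nek2, −0.41 to 0.55 for Hmmr, −0.59 to 0.44 for Ckap2 and −0.43 to 0.53 for Birc5. The cause was not tested. Other changes of sign were between values that passed in neither fit. The lowest count of a member in a library was 36 (Spc24 in shCdGAP replicate 1). In simulated counts for 13483 genes, edgeR called 16% of 2-fold and 82% of 4-fold changes on 6 libraries, and 7% and 67% without shCdGAP replicate 1. Of its calls 3.92% and 6.33% were false. DESeq2 on 6 libraries called 55% and 93% of these changes, with 22.1% of its calls false. All simulated libraries had the spread estimated from the 6 real ones, shCdGAP replicate 1 included. The 7% and 67% thus do not give the recovery of the real fit without that library, where the members' median SE fell from 0.85 to 0.16. The changed genes were drawn from all tested genes, whose median SE on the 6 real libraries was 0.21, beside 0.85 for the members. The shares recovered on 6 libraries thus do not give those for the members.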
